A study of Homo sapiens with 7 samples.

Results

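The genes described here are the 9 human poly(A) polymerases and terminal uridylyltransferases TUT1, PAPOLA, PAPOLG, MTPAP, PAPD4, PAPD5, PAPD7, ZCCHC6 and ZCCHC11, chosen by gene symbol and not by any measured value. They are 9 of 15351 genes with sense reads in the table of the first batch, and they hold 42 of its 51858 sense polyadenylation sites (PASs). They hold 33 of 34838 PASs in the table of the second batch and 46 of 44571 in that of the double knockdown (KD). The 3 tables together list 60 different sites of these genes, of which 34 were classed as last exon and 26 as intronic, and 20 stand in every table.

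All 7 libraries came from HEK293, a line of human embryonic kidney cells, transfected with a control siRNA (siCtrl) or siRNAs to nuclear poly(A) polymerases. In the first batch, sequenced by 3′READS, these were siCtrl, siStar-PAP, siPAPα and siPAPγ, and a further 3′READS library was the double KD of PAPα and PAPγ (siPAPα+γ), whose table repeats the siCtrl library of the first batch. The second batch, by 3′READS+, held 1 siCtrl and 1 siStar-PAP library. The labels do not say whether libraries came from separate cultures. Each condition thus had 1 library per batch, all 4 KDs of the 3′READS libraries were set against the same siCtrl library, and a p-value within a batch compares the reads of 2 libraries and not the conditions.

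A poly(A) polymerase adds adenosines to the 3′ end that cleavage of a nascent transcript leaves. PAPα (PAPOLA) and PAPγ (PAPOLG) are the canonical nuclear enzymes and Star-PAP (TUT1) is a noncanonical nuclear one, which also uridylates U6 snRNA. The other members are noncanonical enzymes: MTPAP acts in mitochondria, PAPD4 lengthens tails in the cytoplasm, PAPD5 and PAPD7 tail nuclear RNAs for trimming or decay and add mixed tails to mRNA, and ZCCHC6 and ZCCHC11 uridylate mRNA and precursors of miRNA. The question put to the data was whether the other members changed when the 3 nuclear enzymes were knocked down.

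The sites on which the results turn are shown first, as the 30 bases of the hg19 reference that end at the PAS, 5′ to 3′ on the strand of the gene. Capitals mark the poly(A) signal AATAAA or ATTAAA where a sequence holds one. The TUT1 and PAPOLG sites are shown because they carry the reads of 2 targeted genes, those of PAPD5 and PAPD7 because usage moved between them, and those of ZCCHC6 and ZCCHC11 because each has reads at an intronic site.
TUT1 last exon, chr11:62342524-62342553, minus strand: tgaagggcAATAAAgctgctagtttattaa
PAPOLG proximal, chr2:61025574-61025603, plus strand: atcttttcaaagagaaacgtttaaaacctt
PAPOLG distal, chr2:61029190-61029219, plus strand: taagtaatcaAATAAAattgctttgataaa
PAPD5 proximal, chr16:50264140-50264169, plus strand: tgggcaattacatgactttgtgtttgcttc
PAPD5 middle, chr16:50264567-50264596, plus strand: tatcgttaATTAAAacttttttaaacattg
PAPD5 distal, chr16:50265707-50265736, plus strand: tttcaatctgaagtaaaatactttcaagaa
PAPD7 main, chr5:6757129-6757158, plus strand: ctttgatttttAATAAActttggaaaccag
ZCCHC6 intronic, chr9:88952251-88952280, minus strand: caATTAAAttttgcataatttcaaaatcta
ZCCHC6 last exon, chr9:88902648-88902677, minus strand: ttgaAATAAAatcagaatttcaacctgtaa
ZCCHC11 intronic, chr1:52940299-52940328, minus strand: tataaagcctcaaaaggtttcagcattcta

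The proximal PAPOLG site, the proximal and distal PAPD5 sites and the intronic ZCCHC11 site held neither signal in the 40 bases before the PAS. Over all sense PASs of the first batch, AATAAA stood in that window of 52.4% of the 42 member sites and of 46.3% of the 51858 sites of all genes, and neither hexamer stood in 31.0% and 37.6%. The letters AATAAA and ATTAAA were searched on the strand of the gene, and a site with both was counted under AATAAA. In the GENCODE annotation lifted to hg19, no coding exon lay over any of the member sites. The proximal PAPOLG site coincided with the annotated end of a retained-intron transcript, and the main PAPD7 site and the ZCCHC6 last-exon site lay within 1 base of an annotated protein-coding end. The proximal, middle and distal PAPD5 sites lay inside annotated exons, 5048, 4621 and 3481 nt from the nearest annotated end. Distal there means the last PAPD5 site listed, not the annotated end of the gene.

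Depth was low for these genes. The tables held 2362875 to 16245257 reads per library, and the 9 members together took 279 to 1454 of them. Since each read marks 1 transcript end, levels need no correction for length. Levels are given as reads per 1000000 PASS reads (RPM), where PASS reads are those with untemplated adenosines that mark a poly(A) tail. Counting intervals are exact at the 95% level. The counts are of reads and are not stated to be collapsed to molecules, so the intervals cover counting error only. Of the HEK293 markers, VIM stood at 42.8 to 152 RPM, KRT18 at 783 to 3927 and CDH2 at 16.4 to 43.1. NEFL stood at 9.85 to 41.6 RPM and LIN28B at 6.44 to 38.6. KRT8 and NEFM were low, at 0.396 to 3.24 and 0.235 to 11.8 RPM. ALB, PTPRC, CD3E and INS, markers of other cell types, had 0 reads in all 7 libraries. COL1A1, another such marker, reached at most 2.38 RPM, in siCtrl of the second batch. KRT8 and NEFM lay below it there (0.396 and 0.594 RPM).

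The median log2 ratio over all genes was itself below 0 in RPM, at -0.50 with siStar-PAP, -0.34 for siPAPα, -0.37 for the library labelled siPAPγ, -0.44 for siPAPα+γ and -0.19 for siStar-PAP of the second batch. It lay within 0.04 of 0 after TMM or DESeq2 scaling. Changes whose size or direction depends on it are therefore also given relative to this median.

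Across the 9 members, changes went in both directions and their number differed between KDs. With siStar-PAP, 6 members were lower and 2 higher at an adjusted Fisher's exact p below 0.05, beside 62.1% of all genes called (48.6% lower, 13.5% higher). With siPAPα, 3 were lower and 2 higher, beside 59.6% of all genes (41.1% and 18.5%). The library labelled siPAPγ had 1 lower and 0 higher, beside 54.4% (40.5% and 14%), and siPAPα+γ had 3 lower and 0 higher, beside 62% (45.5% and 16.6%). These counts include the targets of the siRNAs. TUT1 is among the 6 lower with siStar-PAP, and PAPOLA is among the 3 lower with siPAPα and with siPAPα+γ. In RNA from whole cultures, fewer cells with a transcript and less of it per cell cannot be told apart.

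For siStar-PAP of the second batch, 0 members were called, beside 29.4% of all genes (19.5% lower, 9.9% higher). There 1 member, PAPOLG, had an unadjusted Fisher's exact p below 0.05. The share of all genes below that unadjusted p was not counted, and 29.4% passed even the adjusted test, so no conclusion is drawn from it.

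By size, 5 members were more than 2-fold lower with siStar-PAP beside 34.5% of all genes, and 2 were more than 2-fold higher beside 9.42%. The pairs were 3 lower and 1 higher for siPAPα (28.6% and 13.4% of all genes), 1 and 1 for the library labelled siPAPγ (28.5% and 10.6%), 2 and 0 for siPAPα+γ (33.4% and 11.7%), and 0 and 1 for siStar-PAP of the second batch (23.1% and 11%). The median log2 ratio of the members was -1.06, 0.10, -0.37, -0.25 and -0.22 for the comparisons so ordered. With siStar-PAP 6 of 9 members lay below the median of all genes, and with siPAPα 6 of 9 lay above it. The targets are included here too. TUT1 is among those lower by either measure with siStar-PAP, and PAPOLA among those more than 2-fold lower with siPAPα and siPAPα+γ. Counts and medians were not computed without them.

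**Figure D1:**
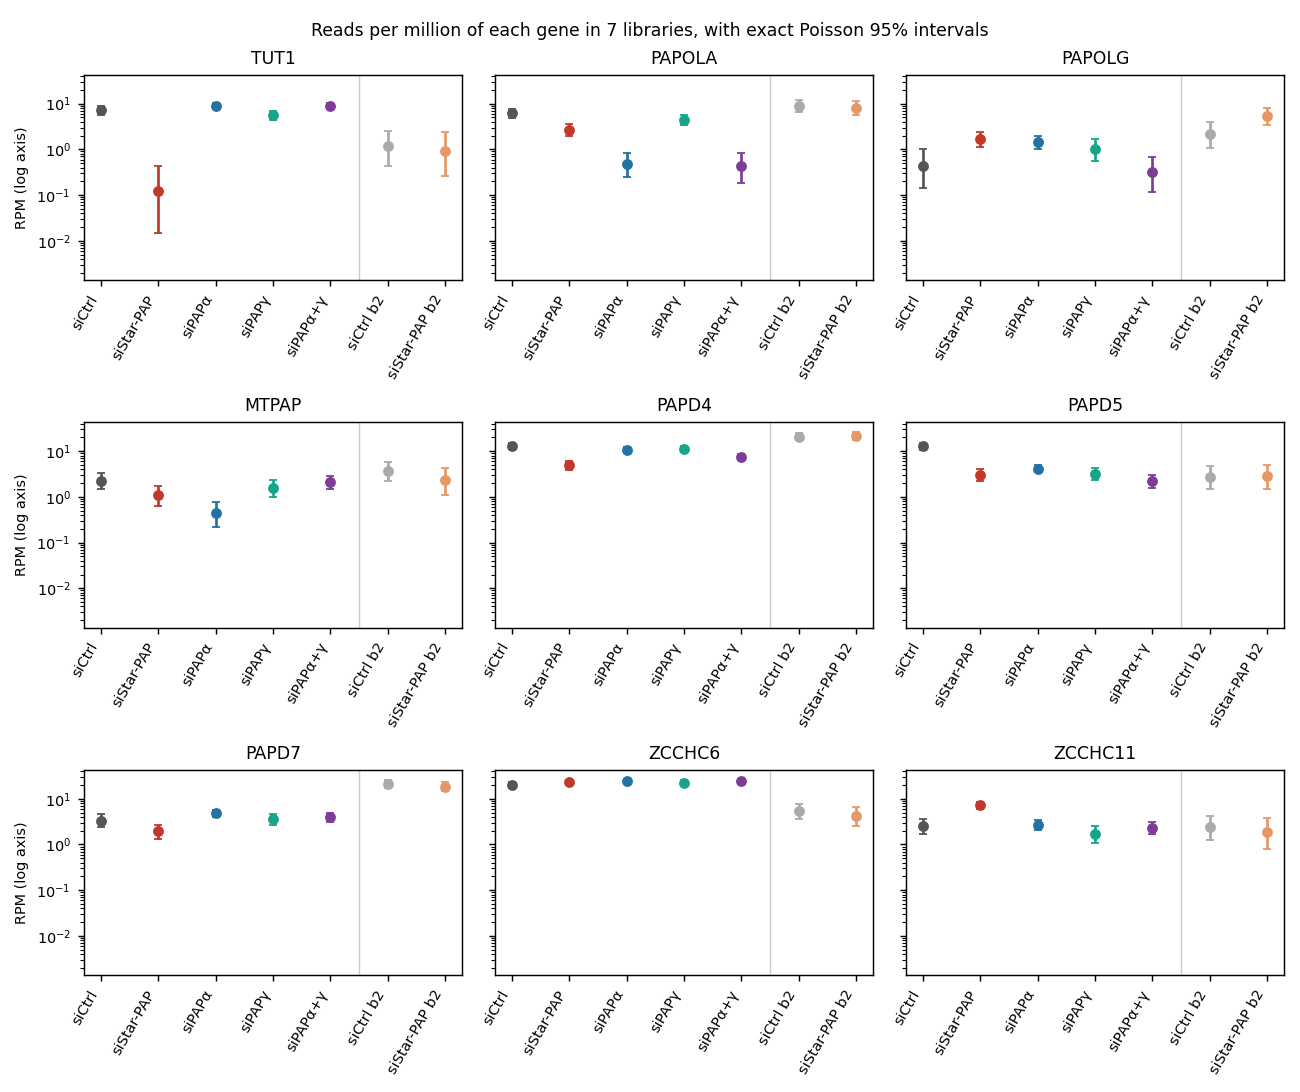
Level of each of the 9 genes in each of the 7 libraries in RPM on a log axis, with exact Poisson 95% intervals; libraries right of the grey line, marked b2, are the second batch. TUT1 in siStar-PAP (0.121 RPM) and PAPOLA in siPAPα and siPAPα+γ (0.478 and 0.426 RPM) are the lowest points of their own genes, and PAPD5 lies lower in all 4 KD libraries left of the line than in siCtrl.

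The targeted genes were read first. TUT1 (chr11:62342517-62359109, minus strand) had 1 PAS, with 83 reads for siCtrl against 2 for siStar-PAP, 228 for siPAPα, 83 for the library labelled siPAPγ and 168 for siPAPα+γ. This was 7.26, 0.121, 9.09, 5.61 and 8.94 RPM, so that siStar-PAP stood at 1.66% of siCtrl (adjusted Fisher's exact p = 7.61e-29) and apart from every other library of its batch. The second batch held 6 TUT1 reads for siCtrl and 4 for siStar-PAP, a ratio of 0.792 with an interval from 0.164 to 3.34. That interval lies above the one of the first batch (0.00198 to 0.0620). A fall as large as in the first batch was thus not seen, and a smaller one was not detectable at this depth.

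TUT1 was not called lower or higher in the other KDs in RPM. Relative to the median of all genes its log2 ratio was 0.67 for siPAPα and 0.74 for siPAPα+γ, and with TMM factors both passed the test (adjusted Fisher's exact p = 0.000622 and 0.000345). In the library labelled siPAPγ it lay at the median.

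PAPOLA (chr14:96967770-97033453, plus strand) had 71, 44, 12 and 66 reads for siCtrl, siStar-PAP, siPAPα and the library labelled siPAPγ. It had 78 for siCtrl and 8 for siPAPα+γ in the table of the double KD, which lists other sites of the gene. The gene stood at 0.0770 times siCtrl in siPAPα (0.0380 to 0.143) and at 0.0624 times in siPAPα+γ (0.0260 to 0.129), the lowest levels of any library, and the ratio of the second to the first was 0.890 (0.316 to 2.37, Fisher's exact p = 1).

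In siStar-PAP of the first batch PAPOLA was 0.428 times siCtrl (0.287 to 0.632, adjusted Fisher's exact p = 2.84e-05), a log2 ratio of -0.73 relative to the median of all genes. With 45 reads for siCtrl and 34 for siStar-PAP, the second batch gave a ratio of 0.898 (0.558 to 1.43), which was not called. The difference between the batches had an adjusted exact p of 0.0492.

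Most PAPOLA reads ended inside introns. In siCtrl 34 of 71 reads lay at 96999033, the annotated end of a retained-intron transcript, and 6 at the end of the gene. The counts at 96999033 were 31 for siStar-PAP, 4 for siPAPα and 26 for the library labelled siPAPγ, while those at the end of the gene were 4, 0 and 12. The second batch did not list 96999033, and its intronic site 97004241 held 23 of 45 reads for siCtrl and 18 of 34 for siStar-PAP, so the batches measured PAPOLA largely at different sites.

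PAPOLG (chr2:60983388-61029221, plus strand) rose with siStar-PAP and siPAPα and was not lower in the library labelled siPAPγ. It had 5 reads for siCtrl against 28 for siStar-PAP, 36 for siPAPα, 15 for the library labelled siPAPγ and 6 for siPAPα+γ, and 11 for siCtrl and 23 for siStar-PAP of the second batch. These were 0.438, 1.69, 1.44, 1.01 and 0.319 RPM, then 2.18 and 5.41 RPM.

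PAPOLG was 3.87-fold higher in siStar-PAP (1.47 to 12.8, adjusted Fisher's exact p = 0.00458) and 3.28-fold higher in siPAPα (1.28 to 10.7, adjusted p = 0.0126). It was the member with the highest log2 ratio in both, at 2.45 and 2.06 on the log2 scale above the median of all genes. The ratio for siStar-PAP of the second batch was 2.48 (1.16 to 5.64, Fisher's exact p = 0.0147), 1.51 above the median on the log2 scale. Its adjusted p lay just above 0.05 in RPM and at 0.0207 with TMM factors. Both batches thus had intervals above 1. All folds of the first batch rest on 5 reads for siCtrl.

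The library labelled siPAPγ had a PAPOLG ratio of 2.32 with an interval from 0.800 to 8.15, which does not show a KD and could not check the label. The study also measured protein by Western blot, which is not analysed here. In siPAPα+γ the ratio was 0.730 (0.186 to 3.02). Against siPAPα rather than siCtrl, PAPOLG stood at 0.222 times in siPAPα+γ (0.0766 to 0.533, adjusted Fisher's exact p = 0.000436), a comparison chosen after the values were seen. It called 3 members lower and 1 higher, beside 49.5% of all genes, and 1 was more than 2-fold lower and 1 higher, beside 15.4% and 8.44%.

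By site, PAPOLG reads at the proximal PAS, 3618 nt before the last site listed, were 2 for siCtrl against 11 for siStar-PAP, 29 for siPAPα, 14 for the library labelled siPAPγ and 2 for siPAPα+γ. At the distal PAS, the annotated end of the coding transcript, they were 3, 15, 6, 1 and 4. The proximal site thus held 14 of 15 reads for the library labelled siPAPγ and 29 of 36 for siPAPα, while siStar-PAP had more reads than siCtrl at both.

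The proximal site of the second batch went from 4 of 11 reads for siCtrl to 17 of 23 for siStar-PAP, and the distal site from 4 to 1. Without the proximal site 7 reads were left in siCtrl and 6 for siStar-PAP of that batch, 1.39 and 1.41 RPM. No change of usage of a PAPOLG site passed the test in any comparison (adjusted Fisher's exact p from 0.101 to 1), with 5 to 36 reads per library.

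**Figure D2:**
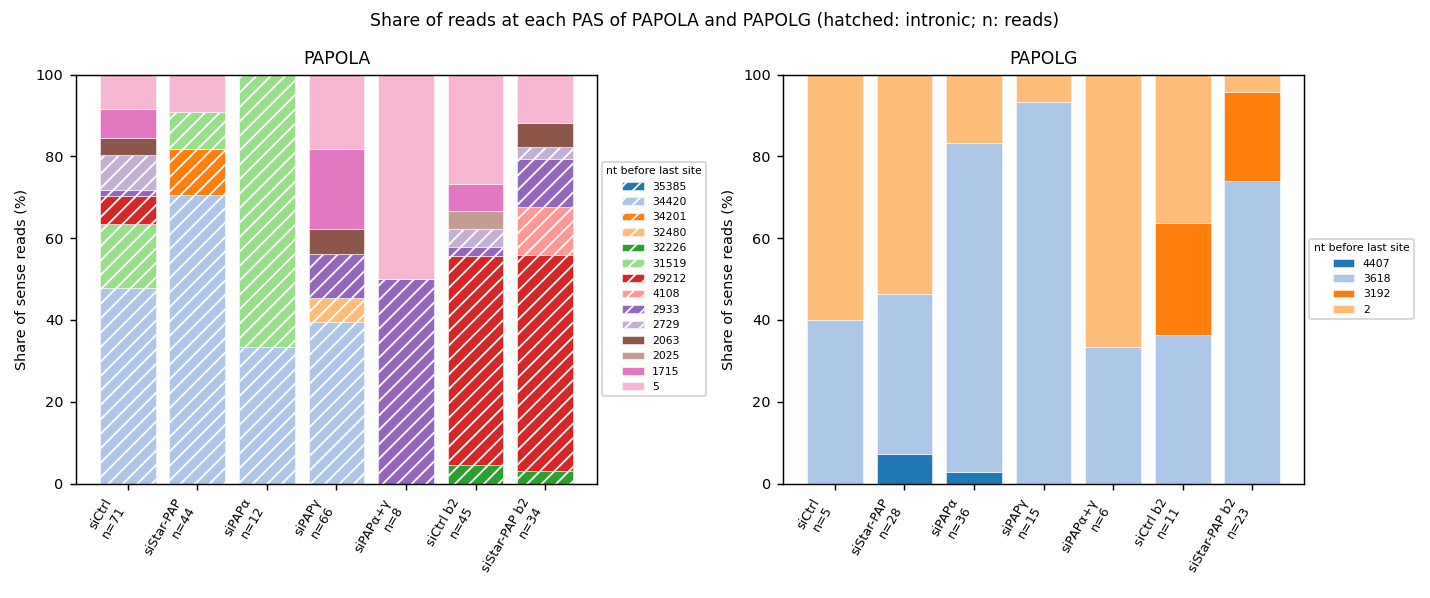
Share of the sense reads of PAPOLA and PAPOLG at each PAS in each library, as stacked bars in percent; colours give the distance in nt from the last site listed, hatching marks intronic sites, n gives the reads and b2 marks the second batch. PAPOLG reads sit mainly at the site 3618 nt before the last in siPAPα and the library labelled siPAPγ, and most PAPOLA bars are intronic.

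The strand opposite the PAPOLA promoter gave more reads than the gene itself in all 7 libraries. Antisense rows of PAPOLA held 136 reads for siCtrl against 131 for siStar-PAP, 283 for siPAPα, 181 for the library labelled siPAPγ and 277 for siPAPα+γ, or 11.9, 7.92, 11.3, 12.2 and 14.7 RPM, while the second batch had 29.1 RPM for siCtrl and 19.5 RPM for siStar-PAP. The GENCODE model of PAPOLA-DT, a divergent transcript, overlaps the promoter (chr14:96967147-96968658, minus strand). In siStar-PAP these reads were lower in both batches, by 0.59 and 0.58 on the log2 scale (adjusted Fisher's exact p = 0.00475 and 0.0446, beside 38.2% and 8.47% of genes with such rows called). These values are in RPM, where the median of all genes was itself at -0.50 and -0.19. With siPAPα, where PAPOLA had 12 sense reads, the log2 ratio was -0.08 (Fisher's exact p = 0.599). With these rows added to the sense rows, the log2 ratio of PAPOLA went from -3.70 to -0.62 for siPAPα and from -4.00 to -0.30 for siPAPα+γ.

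Antisense rows of PAPD4 had 12 reads for siCtrl against 10 for siStar-PAP, 0 for both siPAPα and the library labelled siPAPγ, and 2 for siPAPα+γ. The last 3 were called lower (adjusted Fisher's exact p = 8.88e-06, 0.000426 and 0.00219), beside 40.4%, 26.4% and 34.6% of genes with such rows. These sums join 2 sites. All 12 siCtrl reads lay at 78907845, where siStar-PAP and the other KDs had 0. The 10 reads for siStar-PAP and 2 for siPAPα+γ lay at 78906459, where siCtrl had 0. The sites were not tested singly.

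MTPAP (chr10:30598730-30663377, minus strand), which polyadenylates mitochondrial RNA, had 26 reads for siCtrl against 18 for siStar-PAP, 11 for siPAPα, 23 for the library labelled siPAPγ and 39 for siPAPα+γ. It fell to 0.193 times siCtrl in siPAPα (0.0859 to 0.404, adjusted Fisher's exact p = 6.74e-06) and stood at 0.912 times in siPAPα+γ (0.541 to 1.56). The double KD was 4.73-fold above siPAPα (2.38 to 10.2, adjusted Fisher's exact p = 2.63e-06), and both had PAPOLA at its lowest levels. This comparison too was chosen after the values were seen. Of the reads behind it, 23 of 39 in siPAPα+γ and 2 of 11 in siPAPα lay at 1 site beyond the annotated gene, described below. Both ratios of siPAPα+γ include these reads and were not computed without that site.

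In siStar-PAP MTPAP was 0.478 times siCtrl (adjusted Fisher's exact p = 0.0344), at -0.57 relative to the median of all genes on the log2 scale. That call was lost with table totals, TMM factors or DESeq2 size factors, and the second batch gave 0.625 times (0.260 to 1.41). In siPAPα+γ 23 of 39 reads stood at a site 6975 nt beyond the nearest annotated end, against 5 of 26 for siCtrl (adjusted Fisher's exact p = 0.00912). The table assigns that site to MTPAP, but no annotated exon of the gene reaches it.

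PAPD4 (TENT2, chr5:78907943-78984069, plus strand), the cytoplasmic polymerase also called GLD2, had 151 reads for siCtrl against 82 for siStar-PAP, 269 for siPAPα and 163 for the library labelled siPAPγ, all at 1 PAS. In the table of the double KD it had 155 for siCtrl and 140 for siPAPα+γ. It fell to 0.375 times in siStar-PAP (0.283 to 0.494, adjusted Fisher's exact p = 1.23e-12) and to 0.549 times in siPAPα+γ (0.434 to 0.695, adjusted p = 1.21e-06), the lowest of the 3′READS libraries.

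In siPAPα and the library labelled siPAPγ PAPD4 stood at 0.811 and 0.834 times siCtrl and was not called. Relative to the median of all genes these values were 0.04 and 0.11 on the log2 scale, so their direction depends on the scaling. The second batch had 106 and 92 reads, a ratio of 1.03 (0.771 to 1.38) for siStar-PAP, an interval that lies above that of the first batch.

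PAPD5 (TENT4B, chr16:50186822-50269221, plus strand), a nuclear polymerase of the TRAMP-like complex, was lower in all 4 KDs set against the siCtrl library of the first batch. It had 146 reads for siCtrl against 50 for siStar-PAP, 105 for siPAPα and 47 for the library labelled siPAPγ, then 151 for siCtrl and 41 for siPAPα+γ. In RPM the siCtrl library stood apart from all 4, at 12.8 against 3.02, 4.19, 3.18 and 2.18.

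The ratios for PAPD5 were 0.236 for siStar-PAP, 0.328 for siPAPα, 0.249 for the library labelled siPAPγ and 0.165 for siPAPα+γ, with adjusted Fisher's exact p from 8.20e-30 to 1.21e-17. Relative to the median of all genes the log2 ratios were -1.58, -1.27, -1.64 and -2.16. They share 1 control library and are not independent of each other. The second batch had 14 reads for siCtrl and 12 for siStar-PAP (2.77 and 2.82 RPM), a ratio of 1.02 (0.430 to 2.37).

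Counted in reads, the fall was largest at 1 PAPD5 site. At the proximal PAS, 1567 nt before the distal one, siCtrl had 76 reads, siStar-PAP 10, siPAPα 0, the library labelled siPAPγ 10 and siPAPα+γ 3, where 0 of 105 reads for siPAPα allows a share of at most 3.45% (exact interval). The distal PAS had 11, 23, 61, 26 and 8 reads. The second batch does not list the proximal PAS and had 9 and 7 reads at the distal one.

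As a share of PAPD5 reads, the proximal site fell from 52.1% for siCtrl to 10 of 50 reads for siStar-PAP (adjusted Fisher's exact p = 0.000575), 0% for siPAPα and 21.3% for the library labelled siPAPγ, and from 50.3% to 7.32% for siPAPα+γ (adjusted p = 1.44e-21, 0.00198 and 2.67e-06). The distal site rose from 7.53% to 46.0%, 58.1% and 55.3% in the first 3 of these (adjusted Fisher's exact p = 2.34e-07, 3.76e-17 and 1.05e-09). In siPAPα+γ the distal site stood at 19.5% against 7.28% and was not called, while the middle site rose from 32.5% to 53.7% (adjusted Fisher's exact p = 0.0494).

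Without the proximal site, PAPD5 stood at 6.13 RPM for siCtrl against 2.42 for siStar-PAP, 4.19 for siPAPα, 2.50 for the library labelled siPAPγ and 2.02 for siPAPα+γ. With only the sites that all 3 tables list, the log2 ratio was -1.12, -0.40, -1.24 and -1.72, and the call in siPAPα was lost (adjusted Fisher's exact p = 0.143). These 2 settings were chosen after the data were seen.

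PAPD7 (TENT4A, chr5:6713545-6757157, plus strand), the paralogue of PAPD5, was called lower only with siStar-PAP. It had 38 reads for siCtrl against 32 for siStar-PAP, 122 for siPAPα, 53 for the library labelled siPAPγ and 74 for siPAPα+γ, while the second batch had 108 for siCtrl and 78 for siStar-PAP. The siStar-PAP library of the first batch stood at 0.581 times siCtrl (0.352 to 0.956, adjusted Fisher's exact p = 0.0454), at -0.28 relative to the median of all genes on the log2 scale, and that call was lost with table totals, TMM factors or DESeq2 size factors.

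In siPAPα PAPD7 was 1.46 times siCtrl (1.01 to 2.16, adjusted Fisher's exact p = 0.0651), 0.89 above the median of all genes on the log2 scale, and was called with each of the 3 other scalings. The share of its reads at the main site, the annotated end of the gene, was higher in the KDs than in siCtrl of the first batch. That site held 14 of 38 reads for siCtrl, 21 of 32 for siStar-PAP, 102 of 122 for siPAPα, 36 of 53 for the library labelled siPAPγ and 70 of 74 for siPAPα+γ.

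The share of the main PAPD7 site thus rose from 36.8% to 83.6% for siPAPα (adjusted Fisher's exact p = 1.18e-06), to 67.9% for the library labelled siPAPγ (adjusted p = 0.0270) and to 94.6% for siPAPα+γ (adjusted p = 1.44e-09). In siStar-PAP it was 65.6% and was not called (adjusted Fisher's exact p = 0.0752). The second batch had 105 of 108 reads there for siCtrl and 69 of 78 for siStar-PAP (adjusted Fisher's exact p = 0.199).

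ZCCHC6 (TUT7, chr9:88902648-88969369, minus strand), a uridylyltransferase of mRNA, had the highest level of the members in the 3′READS libraries. It had 228 reads for siCtrl against 381 for siStar-PAP, 603 for siPAPα and 334 for the library labelled siPAPγ, then 241 for siCtrl and 466 for siPAPα+γ. The ratios ran from 1.13 to 1.20, and only that in siPAPα was called in RPM (1.03 to 1.41, adjusted Fisher's exact p = 0.0292). Relative to the median of all genes they were 0.55 to 0.70 on the log2 scale, and with TMM factors all 4 were called.

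ZCCHC6 of the second batch had 27 reads for siCtrl and 18 for siStar-PAP, a ratio of 0.792 (0.411 to 1.49). Its share of reads at the intronic site fell in all 4 KDs, from 14.5% for siCtrl to 6.04% for siStar-PAP (adjusted Fisher's exact p = 0.00420), 1.99% for siPAPα (adjusted p = 1.13e-09) and 5.09% for the library labelled siPAPγ (adjusted p = 0.00221). In siPAPα+γ it fell from 13.7% to 3.00% (adjusted Fisher's exact p = 3.01e-06). Read numbers at that site were 33 for siCtrl and 23, 12, 17 and 14 in the KDs.

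ZCCHC11 (TUT4, chr1:52873954-53019159, minus strand), the paralogue of ZCCHC6, had 29 reads for siCtrl against 118 for siStar-PAP, 68 for siPAPα, 25 for the library labelled siPAPγ and 43 for siPAPα+γ. It rose in siStar-PAP, to 2.81-fold (1.86 to 4.38, adjusted Fisher's exact p = 2.87e-07), 1.99 above the median of all genes on the log2 scale, and siStar-PAP stood apart from the next library (7.13 against 2.71 RPM). In the other KDs the ratio was 0.666 to 1.07 and was not called, and in the second batch siStar-PAP had 8 reads and siCtrl 12, a ratio of 0.792 (0.281 to 2.11).

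The rise of ZCCHC11 was a rise of reads at 1 intronic PAS, which lies 51346 nt before the last site and 3111 nt from the nearest annotated end. That site had 27 of 29 reads for siCtrl and 112 of 118 for siStar-PAP, and 2 and 6 reads were left elsewhere. Of last-exon reads, siCtrl had 2 and siStar-PAP 0, so no rise was detectable at last-exon sites at this depth.

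The intronic ZCCHC11 site fell as a share in siPAPα, to 64.7% from 93.1% (adjusted Fisher's exact p = 0.0178), and in siPAPα+γ, to 39.5% from 87.1% (adjusted p = 0.000307). It is not listed in the second batch, where last-exon sites held 9 of 12 reads for siCtrl and 6 of 8 for siStar-PAP.

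**Figure D3:**
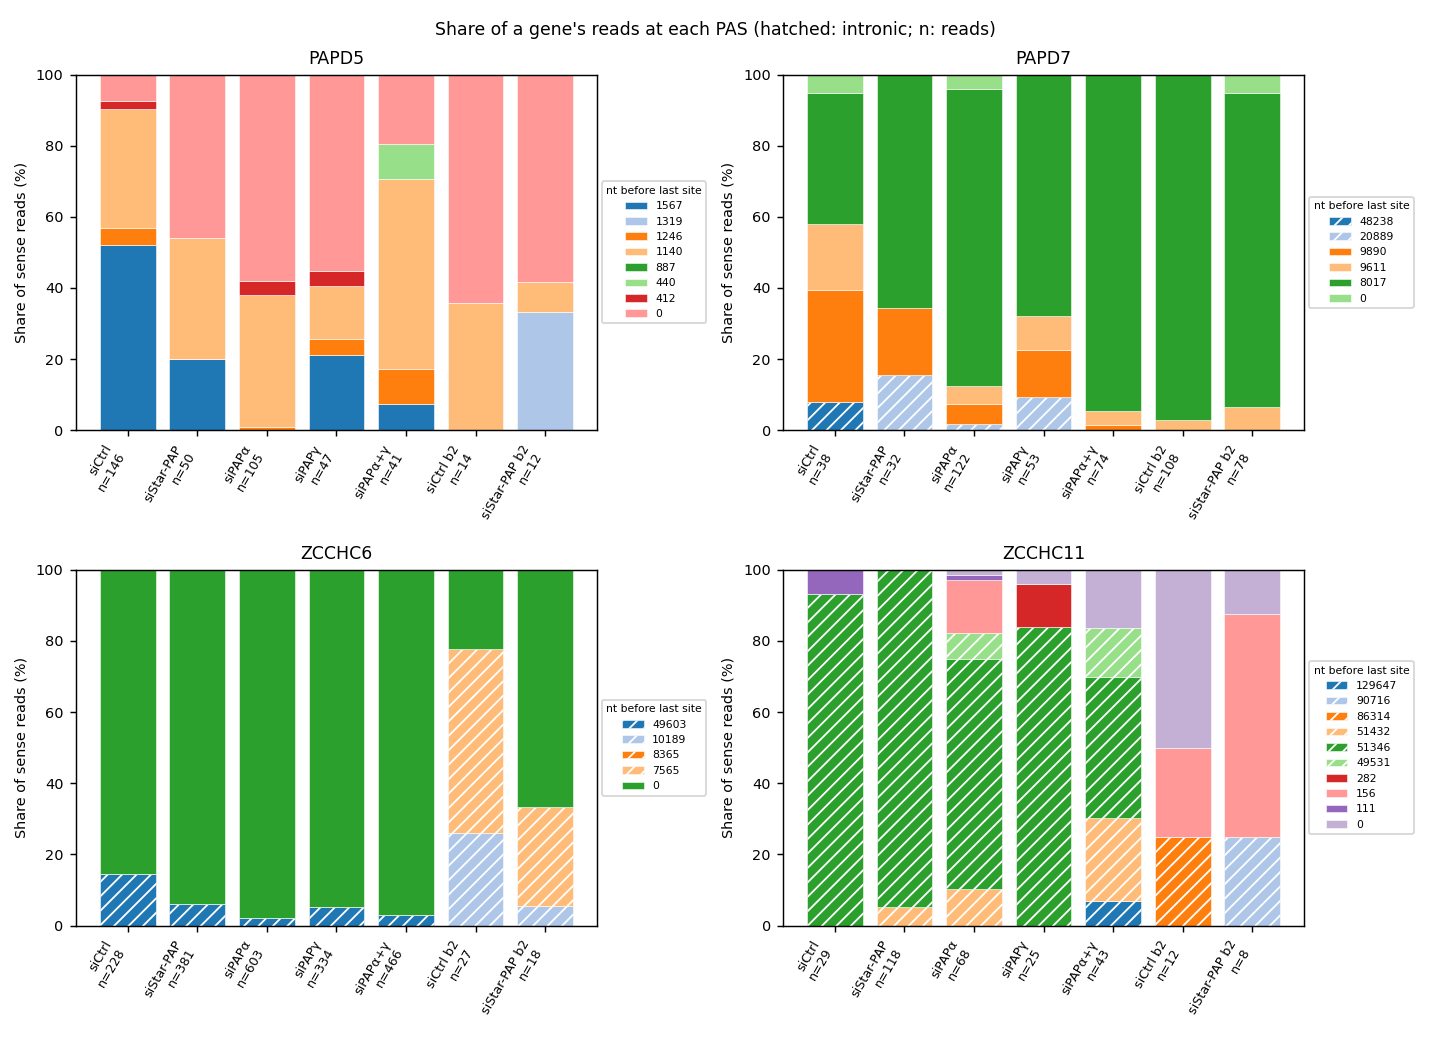
Share of the sense reads of PAPD5, PAPD7, ZCCHC6 and ZCCHC11 at each PAS in each library, as stacked bars in percent; colours give the distance in nt from the last site listed, hatching marks intronic sites, n gives the reads and b2 marks the second batch. The proximal PAPD5 site (1567 nt) shrinks from 52.1% for siCtrl, the main PAPD7 site (8017 nt) grows from 36.8%, and the intronic ZCCHC6 site shrinks from 14.5%.

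Counted over sites, the usage of 8 of 33 member PASs tested changed in siStar-PAP, at an adjusted Fisher's exact p below 0.05, where 35.1% of all PASs tested were called. The numbers were 11 of 36 for siPAPα (36.4% of all PASs), 6 of 34 for the library labelled siPAPγ (24%), 14 of 45 for siPAPα+γ (35.1%) and 0 of 32 for siStar-PAP of the second batch (5.42%). The share of member sites called was thus at or below that of all sites in each.

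Intronic sites took a larger share of member reads than of reads of all genes, at 16.3% against 4.58% for siCtrl, 25.6% against 4.76% for siStar-PAP, 5.98% against 3.45% for siPAPα and 10.4% against 3.81% for the library labelled siPAPγ. The second batch had 15.2% against 4.42% for siCtrl and 13.3% against 4.31% for siStar-PAP. In the table of the double KD the shares were 18.1% against 4.75% for siCtrl and 6.40% against 3.42% for siPAPα+γ. The members' share comes mainly from PAPOLA, ZCCHC6 and ZCCHC11, and no test was made of it.

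Over both batches together, the edgeR quasi-likelihood test with batch as a block called 0 of the 9 members for siStar-PAP, where it called 2.07% of 11756 genes (117 lower, 126 higher). The lowest unadjusted edgeR p among the members were those of TUT1, itself the target, and PAPOLG (0.0354 and 0.0496). Each had 1 sign of the log2 ratio in both batches. The share of all genes with an unadjusted p as low was not counted, so no conclusion is drawn from these values. For TUT1 the sign in the second batch rests on 4 reads against 6, and the batches differed in size (adjusted exact p = 0.000893). TUT1 had an edgeR log2 ratio of -2.91 (SE 1.29, adjusted p = 0.286), and PAPOLG one of 1.93 (SE 0.92, adjusted p = 0.335). DESeq2 called 0, at an unadjusted p below 0.05 also 0, and gave an adjusted p for only 2 of the members. The design has 1 residual degree of freedom.

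For the other 7 members the edgeR log2 ratio lay between -0.85 (PAPD5, SE 0.61) and 1.13 (ZCCHC11, SE 0.73), with adjusted p from 0.504 to 0.924. PAPOLA, PAPD4, PAPD5, ZCCHC6 and ZCCHC11 had log2 ratios of opposite sign in the 2 batches on the TMM scale.

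**Figure D4:**
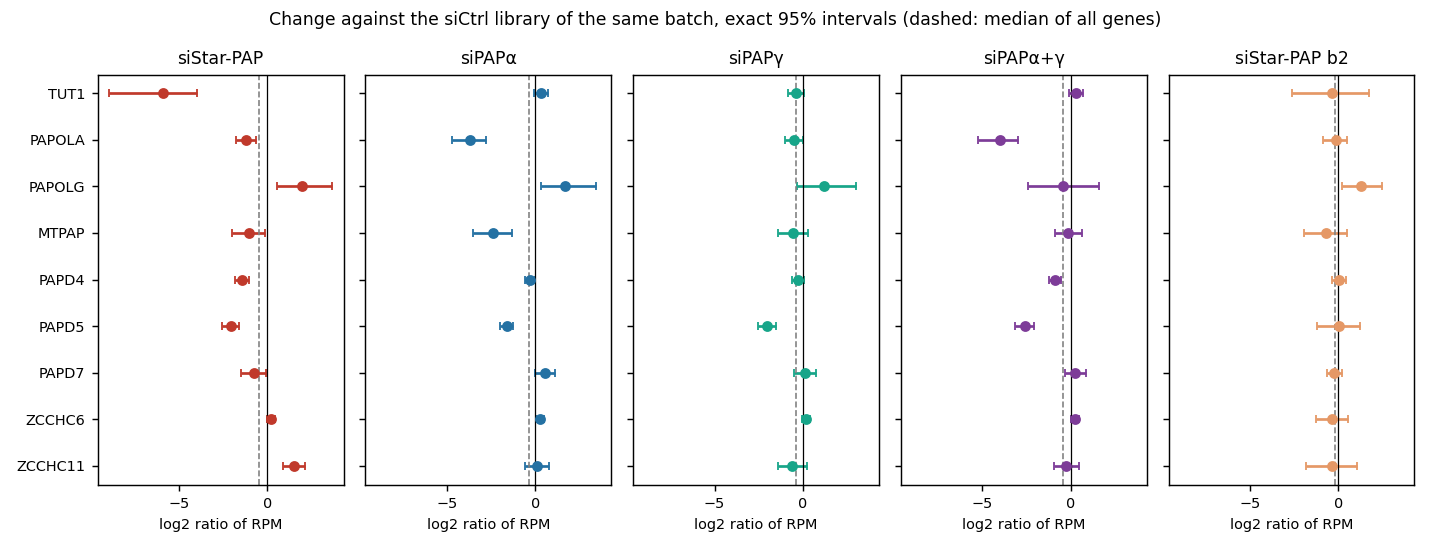
Log2 ratio of RPM of each gene in each KD library against the siCtrl library of the same batch (siPAPα+γ against that of the first), with exact 95% intervals; the solid line is 0, the dashed line the median of all genes and b2 the second batch. PAPOLG lies to the right in siStar-PAP of both batches and in siPAPα, and PAPD5 lies to the left in the first 4 panels and at 0.03 in the fifth.

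Around the members stood a list of 30 related genes: other nucleotidyltransferases, exosome adaptors, the uridylation pathway, mitochondrial poly(A) factors, 3′ trimming enzymes, cytoplasmic polyadenylation factors and partners of Star-PAP. Among those with reads in at least 1 of the libraries compared, 7 of 25 were more than 2-fold lower and 1 higher in siStar-PAP, 7 and 2 for siPAPα, 8 and 1 for the library labelled siPAPγ, 10 and 3 for siPAPα+γ, and 2 and 3 of 23 in the second batch. In the same order, 34.5%, 28.6%, 28.5%, 33.4% and 23.1% of all genes were more than 2-fold lower. The shares of all genes more than 2-fold higher were 9.42%, 13.4%, 10.6%, 11.7% and 11%. The median log2 ratio of the related genes with reads in both libraries was -0.69, -0.26, -0.41, -0.44 and 0.23, beside the medians of all genes given above. By list, the 4 cytoplasmic polyadenylation genes (CPEB1 to CPEB4) had 2 more than 2-fold lower with siStar-PAP, 3 lower and 1 higher with siPAPα, 2 lower in the library labelled siPAPγ and 3 lower with siPAPα+γ, beside the 28.5% to 34.5% of all genes lower by that much. In siStar-PAP and the library labelled siPAPγ, 1 of the 2 was CPEB1 with 0 reads against 1, and the second batch had 0 lower and 1 higher. With siPAPα and with siPAPα+γ, 1 of the 3 lower was CPEB2 with 4 reads against 6, not called in either. The 5 mitochondrial poly(A) genes had 1, 1, 2 and 3 lower in the 4 KDs of the 3′READS libraries, beside the same shares, and 0 higher. SUPV3L1, with 7 reads for siCtrl, is counted in each of the 4. It is the 1 gene lower with siStar-PAP (2 reads) and with siPAPα (5 reads), and was called in neither. In the second batch the 5 genes had 0 lower and 1 higher, PNPT1, with 127 reads for siStar-PAP against 72 for siCtrl (2.10-fold, adjusted Fisher's exact p = 4.01e-06).

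DIS3L2, the exonuclease that degrades uridylated RNA, had 353 reads for siCtrl against 139 for siStar-PAP, 81 for siPAPα, 164 for the library labelled siPAPγ and 119 for siPAPα+γ, and was called lower in all 4. The second batch had 11 reads for siCtrl and 17 for siStar-PAP. CPEB3, which binds cytoplasmic polyadenylation elements, had 57 reads for siCtrl and 12, 17 and 17 in the KDs of its table, then 51 and 14 in that of the double KD, and 13 and 12 in the second batch. Both genes thus were called lower in every KD set against the siCtrl library of the first batch and were not called in the second.

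TOE1, a nuclear deadenylase, was called lower in siStar-PAP (9 reads against 19), siPAPα (11) and the library labelled siPAPγ (7). It was not called with siPAPα+γ (2 reads against 4, adjusted Fisher's exact p = 0.268) or in the second batch (18 against 25, adjusted p = 0.788). FAM46C, a cytoplasmic noncanonical polymerase, had 8 reads for siCtrl against 0 for siStar-PAP, 13 for siPAPα, 1 for the library labelled siPAPγ and 0 for siPAPα+γ. At a floor of 3 reads per library, which is not the exact interval used elsewhere, 0 reads allow up to 0.181 RPM for siStar-PAP and 0.160 RPM for siPAPα+γ. The second batch had 0 FAM46C reads for siStar-PAP and 5 for siCtrl, which was not called (adjusted Fisher's exact p = 0.161). Others of its family differed. FAM46A, with 175 reads for siCtrl, stood at 1.85, 2.44, 1.85 and 2.17 times siCtrl in the same 4 KDs. All 4 were called (adjusted Fisher's exact p from 1.05e-31 to 1.17e-11), while the second batch was not (1.15 times, adjusted p = 0.424). FAM46B was called lower only in siStar-PAP of the first batch (0.617 times, adjusted Fisher's exact p = 0.000577). CPSF1, the largest subunit of the cleavage and polyadenylation specificity factor, had 144 reads for siCtrl against 87 for siStar-PAP, 473 for siPAPα and 396 for the library labelled siPAPγ, log2 ratios of -1.26, 0.58 and 1.09, and 1.47 for siPAPα+γ. CPSF1 thus was lower in siStar-PAP and higher in the other 3, while its log2 ratio was -0.05 in the second batch. Some related genes were called in both batches of siStar-PAP. CSNK1E (0.541 and 0.550 times siCtrl), PIP5K1A (0.621 and 0.709) and PARN (0.628 and 0.329) were lower in both, and LIN28B was higher (1.40 and 1.58). SLIRP (0.566 and 1.54) and PNPT1 (0.508 and 2.10) were lower in the first and higher in the second. Of all genes, 62.1% and 29.4% were called in these batches.

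Genes whose pattern of log2 ratios over the 5 comparisons lay closest to that of a member were sought among 3706 genes with at least 50 reads in every library. For ZCCHC6 these were FHL3 and KCTD1, at a root mean square difference of 0.068 and 0.078, for PAPD4 NCBP1 and ATP11B (0.16 and 0.16), for PAPD5 VPS29 and PRPF39 (0.20 and 0.24), for PAPOLA SENP3 and SYAP1 (0.52 and 0.65) and for TUT1 TAF15 and PRSS23 (1.14 and 1.33). The median gene lay at 0.68 to 2.35 from the same members. The 4 first-batch comparisons behind this share 1 siCtrl library.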

How the data were processed

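3′READS and 3′READS+ reads were mapped to hg19 with bowtie2 by the authors. Per the study's methods, reads above a mapping quality limit with untemplated tail bases (PASS reads) were clustered within 24 nt, and sites of low abundance in their gene were removed, so a site not listed may still have had reads. The deposited values were read counts per PAS, not normalized. The members and gene lists were chosen with earlier results of these data known. Sense rows were summed per gene, and a PAS listed for 2 genes (415 to 585 rows per table, 0 of them member rows) was counted once. RPM used the study's totals of PASS reads per library, as a library's table holds only part of its reads (54.5% to 70.5% in sense rows).

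Pairs of libraries were compared with two-sided Fisher's exact tests (scipy 1.17.1) and Benjamini-Hochberg adjustment over all genes, or over all PASs for usage within a gene. The batches of siStar-PAP were fitted together with edgeR 4.0.16 (quasi-likelihood test, TMM factors, default filter, R 4.3.3). Batch was the block because the labels name it: deviations of the same batch correlated at 0.78 over 13005 genes. The difference of the siStar-PAP ratio between batches was tested on reads with an exact conditional test over all genes. Levels of a gene are not compared across batches, whose protocols differ. Alternatives were table totals, TMM factors, DESeq2 1.42.0 size factors, filters, antisense rows, 1 read added and, chosen after seeing the data, sets of sites. Tests were tried on simulated data. All 9 members and the related genes more than 2-fold changed with an adjusted p below 0.05 in at least 3 of 5 comparisons are named, with the 2 nearest genes of members with at least 50 reads in siCtrl. CPEB1, CPEB2, SUPV3L1, PNPT1, FAM46A and FAM46B are given beside them, as are the related genes called in both batches of siStar-PAP. Sites left out singly are the first of a gene with at least 10 reads in a first-batch library. No column was left without a sample. Sequences and gene models are from GRCh37 (hg19) and GENCODE v44lift37.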

Additional observations from a re-analysis of the deposited data

Results flagged for a closer look

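For 5 of the 9 members the siStar-PAP effect differed between the batches at an adjusted exact p below 0.05, beside 30.5% of 13005 genes. The first minus the second log2 ratio was -5.57 for TUT1 (adjusted exact p = 0.000893), -1.07 for PAPOLA (0.0492), -1.46 for PAPD4 (4.08e-06), -2.11 for PAPD5 (0.00485) and 1.83 for ZCCHC11 (0.0405). For PAPOLG it was 0.64 (adjusted exact p = 0.739), a difference not detectable with these reads. The batches also differ in library protocol, in depth and in the sites listed, and these cannot be told apart.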

How the results depend on the processing

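Of the 17 gene changes called, 15 kept their direction and call with table totals, TMM factors and DESeq2 size factors, and MTPAP and PAPD7 with siStar-PAP lost theirs. All 17 kept both with antisense rows or 1 read added, as did the 13 with more than 50 reads and the 15 with last-exon sites. Antisense rows moved the log2 ratio of PAPOLA from -3.70 to -0.62 with siPAPα and from -4.00 to -0.30 with siPAPα+γ. With sites common to the tables, 3 of 15 were lost. The cause was not tested. A further 6 alternatives gave no value, as 1 library had 0 reads. Precision is limited by 5 to 31 siCtrl reads for PAPOLG, MTPAP, ZCCHC11 and, in the second batch, TUT1 and PAPD5.

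With siStar-PAP, members more than 2-fold lower went from 5 to 2 with TMM or DESeq2 factors, and higher from 2 to 1 with more than 50 reads, common or last-exon sites. With siPAPα, higher went from 1 to 0 (more than 50 reads), 3 (common) or 2 (last exon), and calls from 5 to 3 (more than 50 reads). For the library labelled siPAPγ, lower went from 1 to 2 at 1.5-fold, higher from 1 to 0 (more than 50 reads) or 2 (common), and calls from 1 to 2 with table totals, TMM, DESeq2, antisense rows, common or last-exon sites. With siPAPα+γ, calls went from 3 to 5 (table totals, common) or 6 (TMM, DESeq2), lower from 2 to 1 (antisense), and higher from 0 to 1 (common, last exon). In the second batch, lower went from 0 to 1 (1.5-fold, common, last exon), higher from 1 to 0 (more than 50 reads) or 2 (common, last exon), and calls from 0 to 1 (TMM, DESeq2, last exon) or 2 (antisense). With last-exon sites only, site usage calls went from 11 to 5 (siPAPα), 6 to 3 (library labelled siPAPγ) and 14 to 5 (siPAPα+γ).

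Log2 ratios that changed sign were all uncalled. PAPD4 became 0.040 and 0.011 with siPAPα (TMM, DESeq2), and 0.0038, 0.12 and 0.10 for the library labelled siPAPγ (table totals, TMM, DESeq2), where TUT1 became 0.013 (TMM), PAPOLA 0.10 (common) and 0.68 (last exon), and ZCCHC11 0.63 (last exon). With siPAPα+γ, MTPAP became 0.14, 0.30 and 0.31 with the 3 scalings, 0.12 (common) and 0.24 (last exon), and ZCCHC11 0.023, 0.19 and 0.19, and 1.09 (last exon). In the second batch PAPOLA became 0.025 (TMM) and 0.039 (DESeq2), and with common sites PAPD4 became -0.027, PAPD5 -0.56 and ZCCHC6 1.25 (also 1.25 with last-exon sites).

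For both batches together, the fit with no replicate block called 0 members and 0 genes, against 0 members and 243 genes with the block. RLE factors gave 101 genes lower and 135 higher, DESeq2 gave 81 and 194, and no filter 229 and 214. The pairing by batch changed no call of a member. Log2 ratios without replicate 1 and without replicate 2, which have no test, were -0.16 and -5.43 for TUT1, 0.025 and -0.74 for PAPOLA, 1.49 and 2.43 for PAPOLG, 0.22 and -0.93 for PAPD4, 0.21 and -1.60 for PAPD5, -0.16 and 0.69 for ZCCHC6 and -0.16 and 1.97 for ZCCHC11.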
